A study of Mus musculus with 8 samples.

Results

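The genes of mitochondrial fatty acid oxidation and ketogenesis form a set of 33, chosen by name for their step in the pathway: entry of fatty acids, beta-oxidation, electron transfer and ketone bodies. Each gene was read in liver RNA on an exon array, at the probe-set of highest mean among those that the array annotation names with its symbol alone. Of the 33 genes, 26 had such a probe-set and 25 passed the filter on low values, against 14860 genes with a probe-set of their own on the whole array. The liver samples came from 8 wild type male C57Bl6J mice, each hybridised to 1 array. The alcohol group, WA-811, WA-817, WA-833 and WA-836, had received Lieber-DeCarli liquid diet with alcohol from the age of 6 weeks, and WC-820, WC-824, WC-834 and WC-840 were the pair-fed controls. Per the labels, alcohol was raised from 2.06% for 3 days to 4.18% for 4 days and then to 6.2% for 5 weeks, when it supplied 35% of the calories, while the controls took maltose and dextrin instead for 6 weeks; the study's methods give a slightly higher final alcohol level for the same share of calories. All values are log2 expression values made with RMA (robust multi-array average), so a difference of 1 is a doubling. RMA corrects background, equalises the probe values of the arrays and summarises the probes of a probe-set.

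Fatty acids enter the mitochondrial matrix as carnitine esters: acyl-CoA synthetases activate them, Cpt1a on the outer membrane moves the acyl group to carnitine, a carrier takes the ester across, and Cpt2 restores acyl-CoA. Each turn of beta-oxidation then runs through a dehydrogenase, a hydratase, a second dehydrogenase and a thiolase, and the first dehydrogenase passes its electrons to the electron transfer flavoprotein. In liver much of the acetyl-CoA so formed becomes ketone bodies for other tissues, and the nuclear receptor PPAR alpha is a known activator of many of these genes in fasting.

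Most of the measured genes lay somewhat lower in the mice fed alcohol diet. Of the 25 tested members, 5 (20%) were lower at an adjusted p under 0.05: *Cpt1a*, *Acad8*, *Echs1*, *Etfa* and *Bdh2*. One (4%) was higher, the carnitine transporter *Slc22a5*, and 19 did not pass the test. Over all probe-sets tested, 5.98% were lower and 10.2% were higher at the same threshold (limma, Benjamini-Hochberg adjustment over all of them). The log2 change was below 0 for 18 of the 25 members, with a median of -0.18, whereas it was below 0 for 40% of all probe-sets, with a median of 0.053. The sizes were small. The largest was 1.49-fold for *Cpt1a*. The thresholds of the study's methods, an unadjusted P of 0.0001 with a 1.5-fold change, were reached by 0 members and by 1.76% of all probe-sets. An unadjusted P under 0.05 was met by 14 members, 12 lower and 2 higher. The share of all probe-sets at that P was not counted, so such counts, here and below, have no background beside them. RNA came from whole liver, so fewer cells of a type and less RNA per cell cannot be told apart.

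These counts moved with the processing. The array medians of the deposited values did not overlap, at 5.1 to 5.14 in the alcohol group and 5.04 to 5.08 in the controls. When each array was centred on its own median, 11 members were lower. The split over all probe-sets then turned from 10.2% higher and 5.98% lower to 6.99% higher and 8.49% lower. With no filter on low values, 1 member was lower, *Cpt1a*, and 0 were higher. Leaving out 1 of WC-820, WC-824, WC-834, WC-840, WA-817 or WA-836 left 3 called lower each time, *Cpt1a*, *Etfa* and *Bdh2*, and *Slc22a5* was no longer called without WC-824, WC-834, WC-840 or WA-817.

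**Figure D1:**
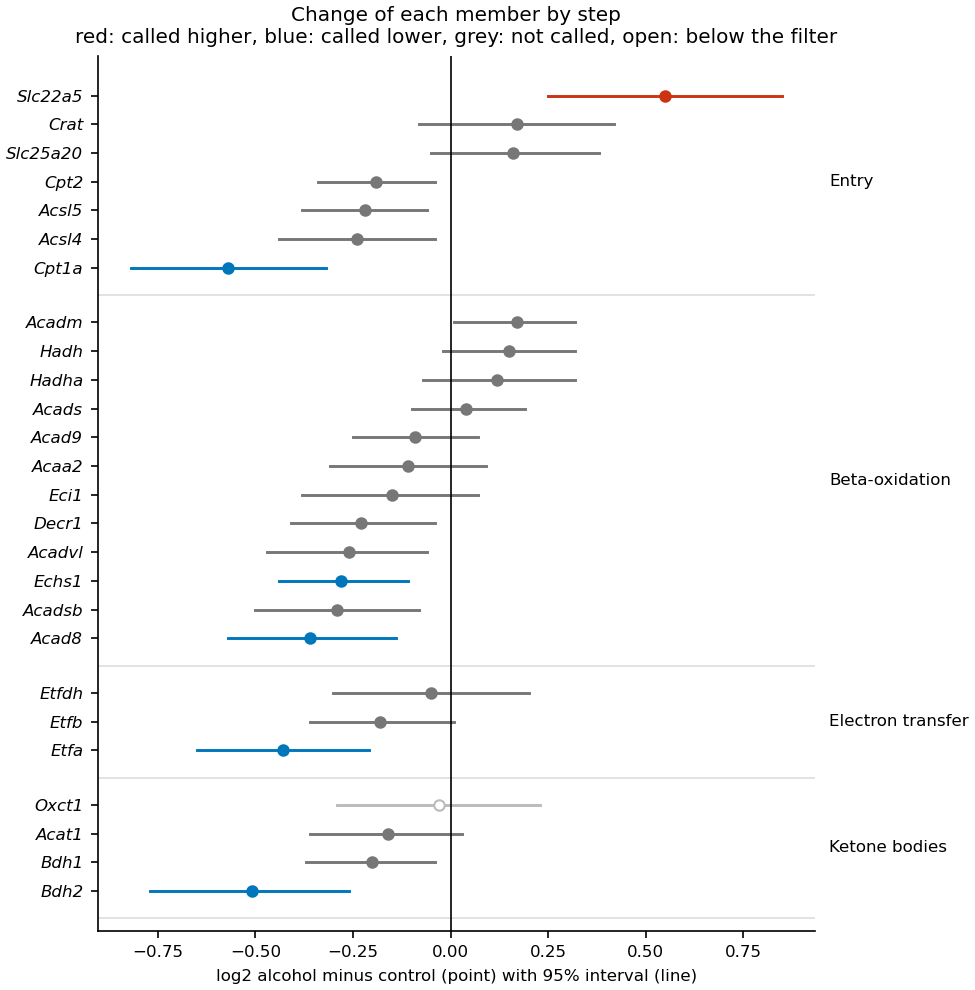
Log2 change (alcohol minus control) of the 26 members with their own probe-set, in blocks by step; points are estimates and lines 95% intervals of the limma fit, n = 4 mice per diet. *Slc22a5* (0.55) is the only red point, *Cpt1a* (-0.57) lies lowest, and the open point is *Oxct1*, which the filter removed.

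At the entry step, 1 of 7 tested members was lower and 1 was higher. *Cpt1a*, the liver form of carnitine palmitoyltransferase I and the main control point of entry, read 11.40, 11.46, 11.46 and 11.68 in the controls and 11.22, 10.91, 10.76 and 10.83 in WA-811, WA-817, WA-833 and WA-836. All 4 alcohol values lay below all 4 control values, and WA-811 was the closest to them. The group means were 11.50 ± 0.125 and 10.93 ± 0.204 (SD, n = 4), a change of -0.57 (SE 0.11, limma adjusted p = 0.0107). At a threshold of 0.05 this call held under all 16 alternative settings that could move it, with an adjusted p between 0.00607 and 0.0451. At a threshold of 0.01 *Cpt1a* was not called. Without WA-811 *Cpt1a* also passed the thresholds of the study's methods, 1 member in place of 0.

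*Slc22a5*, which carries carnitine through the plasma membrane, went the other way. It read 7.74, 7.52, 7.32 and 7.33 in the controls and 8.03, 8.30, 7.76 and 8.01 in the alcohol group, a change of 0.55 (SE 0.13, limma adjusted p = 0.023). The groups were separated by 0.02 alone, between WC-820 and WA-833.

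The promoters of 3 called members are shown to set the 2 genes with the largest changes in either direction beside *Echs1*, the other called member whose promoter held a nuclear receptor half-site. They were picked after the values were seen, *Echs1* for its half-site. The windows of *Acad8*, *Etfa* and *Bdh2*, also called lower, held no half-site, and those of *Acadm* and *Acadvl*, not called, held it. Each run is the 250 bases before the annotated start of the gene, 5′ to 3′ on the strand of the gene, from RefSeq on GRCm38.p6: chr19:3323051-3323300 on the plus strand for *Cpt1a*, chr7:140116422-140116671 on the minus strand for *Echs1* and chr11:53891704-53891953 on the minus strand for *Slc22a5*. Capitals mark the half-site AGGTCA and the GC box GGGCGG on either strand.
Cpt1a: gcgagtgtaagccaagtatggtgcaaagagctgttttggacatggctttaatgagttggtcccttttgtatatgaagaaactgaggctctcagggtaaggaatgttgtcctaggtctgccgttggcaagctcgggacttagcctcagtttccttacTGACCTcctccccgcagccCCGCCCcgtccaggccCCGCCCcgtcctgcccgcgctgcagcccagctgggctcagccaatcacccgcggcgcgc
Echs1: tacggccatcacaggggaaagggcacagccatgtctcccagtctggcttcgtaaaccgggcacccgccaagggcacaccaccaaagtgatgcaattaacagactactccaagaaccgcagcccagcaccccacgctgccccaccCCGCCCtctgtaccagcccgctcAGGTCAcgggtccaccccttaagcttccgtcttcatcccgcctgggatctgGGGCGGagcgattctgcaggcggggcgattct
Slc22a5: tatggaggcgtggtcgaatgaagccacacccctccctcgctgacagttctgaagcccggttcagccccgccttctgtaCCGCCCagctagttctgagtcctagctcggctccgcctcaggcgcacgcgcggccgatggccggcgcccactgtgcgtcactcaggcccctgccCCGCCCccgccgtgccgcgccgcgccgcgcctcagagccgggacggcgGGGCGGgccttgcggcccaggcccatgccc
The half-site stands 94 to 89 bases before the start of *Cpt1a* and 83 to 78 bases before that of *Echs1*. The *Slc22a5* window holds 3 GC boxes and no half-site. G and C make up 59.6%, 62.8% and 73.6% of the windows of *Cpt1a*, *Echs1* and *Slc22a5*.

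RefSeq promoters were at hand for 28 of the 33 members (30 promoters, with those of *Hadha* and *Hadhb* overlapping head to head). GGGCGG occurred in 17 of the 30 (56.7%) against 32.7% of all 32851 promoters of that length, and the median GC content was 59.2% against 52.4%. The half-site AGGTCA, to which PPAR alpha and other nuclear receptors bind in pairs, occurred in 4 (13.3%), those of *Acadm*, *Echs1*, *Acadvl* and *Cpt1a*, against 14% of all. CCAAT was found in 12 (40%) against 33.8%. TATAAA was found in 0 against 12.4%, and TCAAGGTCA, which contains AGGTCA, in 0 against 0.387%. All were searched on both strands, and a match describes the letters of the window only.

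**Figure D2:**
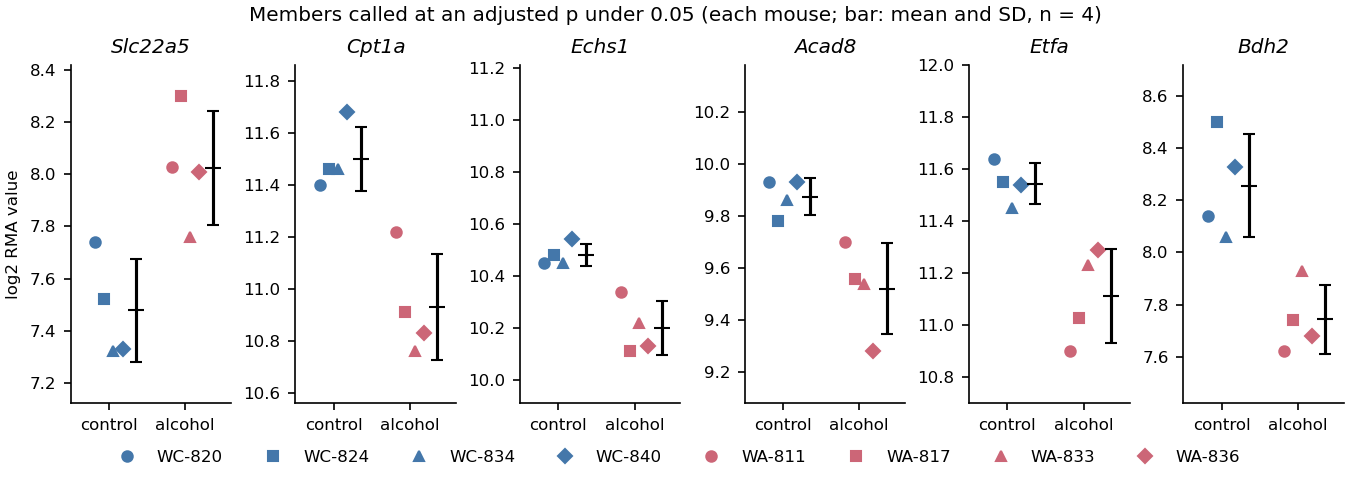
Log2 RMA values of the 6 called members in each of the 4 control (blue) and 4 alcohol (red) mice, 1 symbol per mouse, with the group mean and SD in black; every panel spans the same number of log2 units. In each panel the 2 diets do not overlap, by 0.18 for *Cpt1a* and by 0.02 for *Slc22a5*.

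A further 3 entry genes read lower in every alcohol mouse than in any control mouse without passing the test. *Acsl5*, an acyl-CoA synthetase, read 11.32, 11.35, 11.43 and 11.37 in the controls and 11.26, 11.09, 11.19 and 11.05 in the alcohol group (change -0.22, limma adjusted p = 0.0649). *Acsl4*, the synthetase that prefers arachidonic acid, read 8.47, 8.49, 8.68 and 8.51 against 8.40, 8.22, 8.14 and 8.42 (-0.24, limma adjusted p = 0.0951). *Cpt2*, the inner membrane transferase, was very even in the controls at 9.75, 9.75, 9.76 and 9.78, and read 9.69, 9.53, 9.52 and 9.54 in the alcohol group (-0.19, limma adjusted p = 0.0857). The SD of *Cpt2* was 0.0142 in the controls and 0.083 in the alcohol group.

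Over all members, the diets did not overlap in 10 of 25 with alcohol lower (40%) and in 3 with alcohol higher (12%), whereas 8.14% and 15.5% of all probe-sets separated in those directions. Of the 10, 5 were called and 5 had an adjusted p between 0.0649 and 0.0951. The remaining entry genes overlapped between the diets. *Slc25a20*, the carnitine-acylcarnitine carrier of the inner membrane, changed by 0.16 (95% interval -0.05 to 0.38, limma adjusted p = 0.271), and *Crat*, carnitine acetyltransferase, by 0.17 (-0.08 to 0.42, limma adjusted p = 0.334).

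In beta-oxidation, limma called 2 of 12 tested members lower and 0 higher (5 and 1 at an unadjusted P under 0.05), and the median change was -0.13. *Echs1*, the hydratase that acts on short-chain enoyl-CoA, read 10.45, 10.48, 10.45 and 10.54 in the controls and 10.34, 10.11, 10.22 and 10.13 in the alcohol group. The controls lay close together and above every alcohol value (change -0.28, SE 0.07, limma adjusted p = 0.0315). *Acad8* read 9.93, 9.78, 9.86 and 9.93 in the controls and 9.70, 9.56, 9.54 and 9.28 in the alcohol group, lowest in WA-836 (change -0.36, SE 0.09, limma adjusted p = 0.0333). *Acad8* encodes isobutyryl-CoA dehydrogenase, which is known for valine breakdown and not for the oxidation of straight-chain fatty acids. Both calls were lost under several alternatives, 9 of 16 for *Acad8* and 7 of 16 for *Echs1*, with an adjusted p of up to 0.103 and 0.0963. *Acad8* was also lost without WA-833.

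The acyl-CoA dehydrogenases, which take the first step and differ in the chain length they accept, lay on both sides of 0. *Acadvl*, for very long chains, read 10.65, 10.36, 10.39 and 10.32 in the controls and 10.17, 10.28, 10.10 and 10.12 in the alcohol group (-0.26, limma adjusted p = 0.0767). *Acadm*, for medium chains, lay on the other side, at 11.49, 11.44, 11.38 and 11.39 against 11.69, 11.63, 11.51 and 11.54 (0.17, limma adjusted p = 0.13). Neither passed the test, although the diets did not overlap for either gene. *Acads*, for short chains, changed by 0.04 (95% interval -0.10 to 0.19), a value that turned to -0.02 when arrays were centred on their median.

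*Acadsb*, for short branched chains from isoleucine, read 8.54, 8.51, 8.50 and 8.43 in the controls and 8.13, 8.14, 8.47 and 8.10 in the alcohol group (-0.29, limma adjusted p = 0.0669). WA-833 alone reached the control range, and without it the change was -0.37 with an adjusted p of 0.0108. *Acad9*, which also serves in the assembly of respiratory complex I, changed by -0.09 (95% interval -0.25 to 0.07).

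For the remaining beta-oxidation genes no call was made. *Hadha*, the alpha subunit of the trifunctional protein that handles long chains, read 10.85, 10.74, 10.79 and 10.75 in the controls and 10.97, 10.96, 11.01 and 10.69 in the alcohol group (0.12, limma adjusted p = 0.355). *Hadh*, the dehydrogenase of medium and short chains, read 11.68, 11.74, 11.73 and 11.73 against 11.94, 11.80, 11.99 and 11.75, a separation of 0.01 with alcohol higher (0.15, limma adjusted p = 0.203). *Acaa2*, the thiolase, changed by -0.11 (95% interval -0.31 to 0.09). The 2 enzymes needed for unsaturated fatty acids were *Eci1* and *Decr1*: *Eci1*, the isomerase, changed by -0.15 (-0.38 to 0.07), and *Decr1*, the reductase, by -0.23 (-0.41 to -0.04, limma adjusted p = 0.0987).

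Electron transfer was read through all 3 of its members. *Etfa*, the alpha subunit of the flavoprotein that accepts electrons from the acyl-CoA dehydrogenases, read 11.64, 11.55, 11.45 and 11.54 in the controls and 10.90, 11.03, 11.23 and 11.29 in the alcohol group. WA-811 and WA-817 were the lowest, and the groups were 0.16 apart (change -0.43, SE 0.10, limma adjusted p = 0.0174). *Etfb*, its beta subunit, changed by -0.18 (95% interval -0.36 to 0.01, limma adjusted p = 0.168), and the difference between the subunits was not tested. *Etfdh*, which hands the electrons on to ubiquinone, read 11.35, 11.32, 11.31 and 11.22 in the controls and 11.21, 11.14, 11.58 and 11.07 in the alcohol group (-0.05, limma adjusted p = 0.803). The value of WA-833 lay above all controls and the other alcohol values below all of them. Without WA-833 the *Etfdh* change was -0.16, and without WA-836 it was 0.01.

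Of the ketone body genes, 1 of 3 tested was lower. *Bdh2* read 8.14, 8.50, 8.06 and 8.33 in the controls and 7.62, 7.74, 7.93 and 7.68 in the alcohol group, with WA-833 nearest to the controls (change -0.51, SE 0.11, limma adjusted p = 0.0157). Its product is a cytosolic hydroxybutyrate dehydrogenase that has also been tied to the making of a mammalian siderophore, and it is not the mitochondrial enzyme of ketogenesis. That enzyme, *Bdh1*, which interconverts acetoacetate and 3-hydroxybutyrate, read 10.93, 10.77, 10.80 and 10.80 in the controls and 10.67, 10.71, 10.63 and 10.49 in the alcohol group (-0.20, limma adjusted p = 0.0934). *Acat1*, the acetoacetyl-CoA thiolase, changed by -0.16 (95% interval -0.36 to 0.03, limma adjusted p = 0.222). *Oxct1*, the transferase with which tissues other than liver use ketone bodies, fell under the filter. It read 4.74 to 4.92 in the controls and 4.58 to 5.07 in the alcohol group (-0.03, limma adjusted p = 0.934 in the fit with no filter).

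No value was read for 7 members. The probe-sets that name *Acsl3*, *Acadl*, *Acad10* and *Hadhb* name a further gene as well (*Utp14b* for *Acsl3*, *Rpl12* and EG633570 for *Acadl*, *Acad12* for *Acad10*, *Glycam1* for *Hadhb*), so no level was assigned to them. *Acsl1*, the chief synthetase of liver, *Mlycd*, which removes the Cpt1 inhibitor malonyl-CoA, and *Acad11* were not found under these symbols in the annotation used. The long-chain dehydrogenase and the beta subunit of the trifunctional protein are therefore outside these counts.

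**Figure D3:**
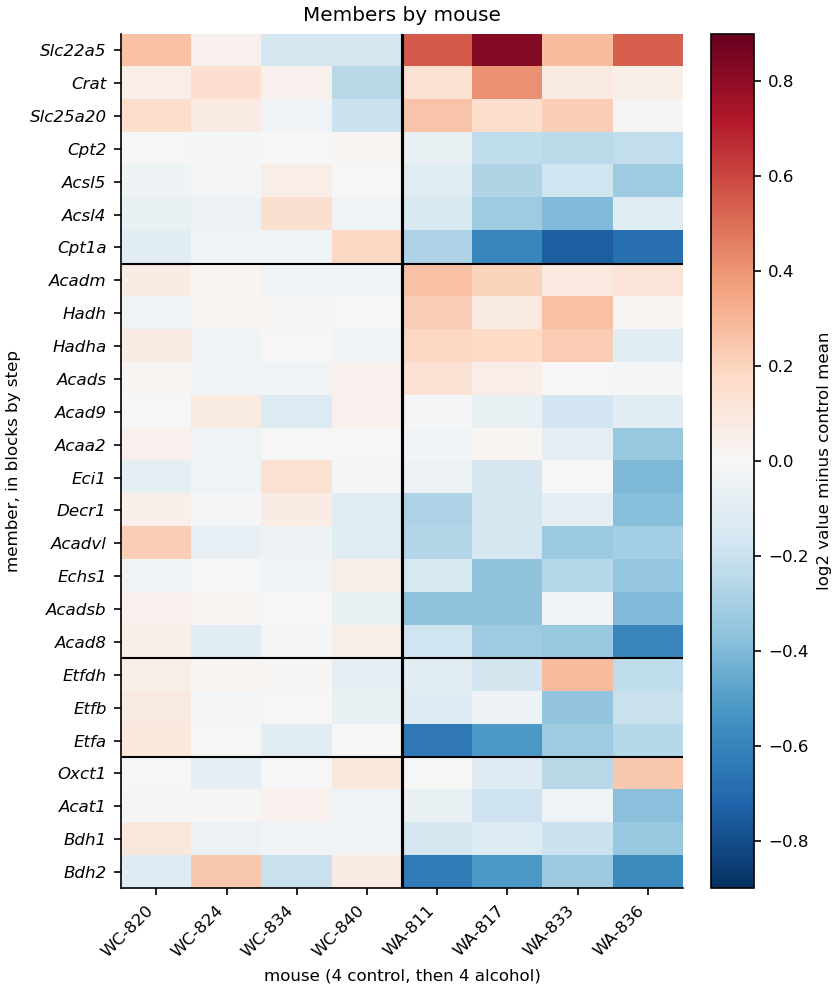
Log2 value minus the control mean (colour) for the 26 members with their own probe-set (rows, in blocks by step) in the 4 control mice (left) and 4 alcohol mice (right). Blue dominates on the right, most of all in WA-836, whose median over the 25 tested members was -0.26, and *Slc22a5* is red in all 4 alcohol mice.

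The alcohol mice differed among themselves more than the controls did. Relative to the control mean, the median over the 25 members was -0.09 in WA-811, -0.15 in WA-817, -0.09 in WA-833 and -0.26 in WA-836, and it ran from -0.02 to 0.04 in the controls. WA-836 was the lowest of its group in 14 of the 25 members and WA-833 in 8, against 2 for WA-811 and 1 for WA-817. WA-833 was also the highest of its group in 8, WA-811 in 9, WA-817 in 6 and WA-836 in 2. The steps were not equally low in each mouse: WA-836 had a median of -0.32 over beta-oxidation and -0.11 over entry, and WA-817 had -0.11 and -0.23. The median SD of a member was 0.134 in the alcohol group and 0.0694 in the controls, and the alcohol SD was the larger in 20 of 25 (80%). Over all probe-sets tested it was 0.15 against 0.119, larger with alcohol in 63.5%. No array stood apart: over all probe-sets, arrays of different diets correlated at 0.977 to 0.982, control arrays at 0.984 to 0.987 and alcohol arrays at 0.983 to 0.984.

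The same fit was read for 4 neighbouring lists. Over all probe-sets tested, 10.2% were called higher and 5.98% lower, with a median change of 0.053. Other genes of mitochondrial acyl-CoA and branched-chain oxidation had 18 tested members, of which 4 were lower and 1 was higher, with a median change of -0.14. *Mut*, methylmalonyl-CoA mutase, which feeds propionate into the citric acid cycle, read 10.38 to 10.55 in the controls and 9.76 to 10.07 in the alcohol group (-0.47, limma adjusted p = 0.00802). *Echdc2*, an enoyl-CoA hydratase domain protein, changed by -0.43 (limma adjusted p = 0.00997). *Ivd*, the dehydrogenase of leucine breakdown, changed by -0.33 (limma adjusted p = 0.0436), and *Pccb*, the beta subunit of propionyl-CoA carboxylase, by -0.27 (limma adjusted p = 0.025). The one higher was *Bbox1*, which makes carnitine from gamma-butyrobetaine, at 11.05 to 11.22 in the controls and 11.38 to 11.57 in the alcohol group (0.30, limma adjusted p = 0.0254). *Ivd* lost its call in 10 of the 16 alternatives, *Pccb* in 6 and *Bbox1* in 5.

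Among other ketone body genes, 4 were tested and 1 was higher (10.2% of all probe-sets were higher). *Slc16a7*, a monocarboxylate transporter with high affinity for pyruvate and ketone bodies, read 9.74, 9.93, 9.80 and 9.72 in the controls and 10.76, 11.04, 10.73 and 11.26 in the alcohol group. Its change of 1.15 (SE 0.12, 2.22-fold, limma adjusted p = 0.00103) was larger than that of any tested member.

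Among regulators of the pathway, 14 were tested, 3 were higher and 2 were lower (10.2% and 5.98% of all probe-sets). *Ppara*, which encodes PPAR alpha, read 10.43, 10.60, 10.42 and 10.66 in the controls and 10.16, 9.98, 9.91 and 9.67 in the alcohol group (-0.60, SE 0.11, 1.51-fold, limma adjusted p = 0.00857). Its lowest value was in WA-836. Of the members called lower, *Acad8* was also lowest there. *Cpt1a* was lowest in WA-833, *Echs1* in WA-817, and *Etfa* and *Bdh2* in WA-811. *Sirt3*, the mitochondrial deacetylase, changed by -0.45 (limma adjusted p = 0.0168). *Acaca*, acetyl-CoA carboxylase, which makes malonyl-CoA, changed by 0.68 (limma adjusted p = 0.0142), and *Prkaa2* and *Prkaa1*, the catalytic subunits of AMP-activated protein kinase, by 0.58 (limma adjusted p = 0.0119) and 0.47 (limma adjusted p = 0.00582). *Sirt3* was not called with no filter or without WC-824, and *Acaca* not with no filter or no moderation of the variances.

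The parallel peroxisomal route, which shortens very long and branched chains, had 12 tested members, with a median of -0.09. Of the 12, 3 were higher and 2 lower (10.2% and 5.98% of all probe-sets). *Acox2*, the branched-chain acyl-CoA oxidase, changed by 0.45 (limma adjusted p = 0.0239), *Ehhadh*, the bifunctional enzyme, by 0.42 (limma adjusted p = 0.0254), and *Slc25a17*, a carrier of the peroxisomal membrane, by 0.41 (limma adjusted p = 0.00352). *Slc25a17* was even within each diet, at 9.13 to 9.16 in the controls and 9.54 to 9.56 in the alcohol group. *Amacr*, the racemase for branched chains, changed by -0.43 (limma adjusted p = 0.012) and *Acox3*, a further branched-chain oxidase, by -0.31 (limma adjusted p = 0.0452). *Ehhadh* and *Acox3* lost their calls in 9 of the 16 alternatives and *Acox2* in 6, each without WC-824, WC-840, WA-811 or WA-817 among others. Whether the lists differed from the members was not tested.

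**Figure D4:**
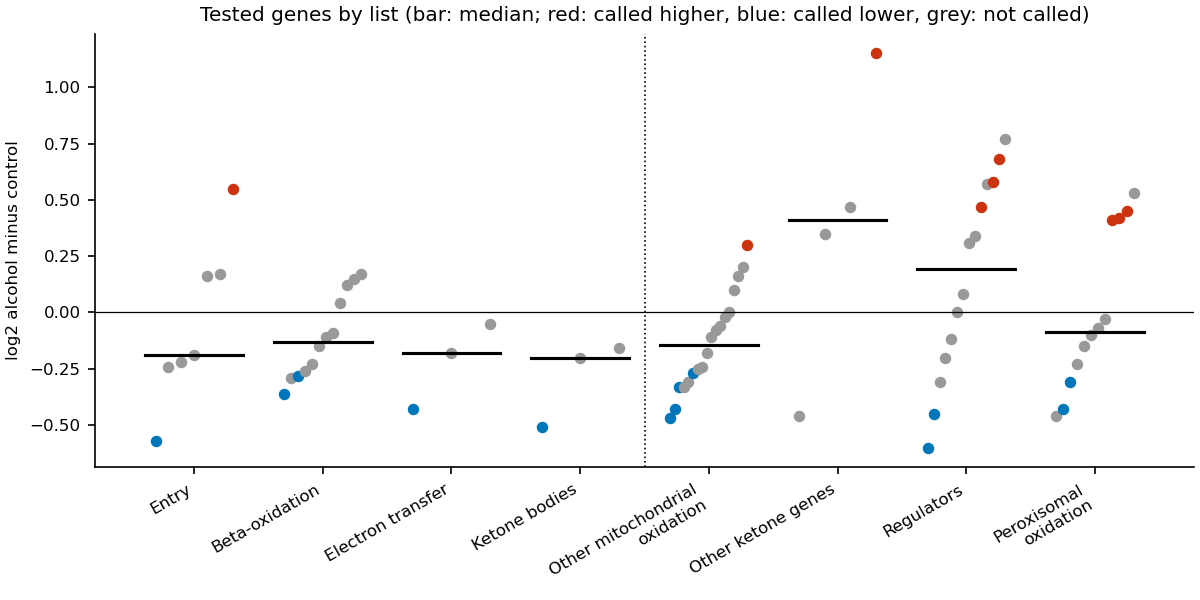
Log2 change (alcohol minus control) of each tested gene in the 4 steps (left of the dotted line) and the 4 neighbouring lists (right), with the median of each list as a black bar; red and blue mark genes called higher and lower. The medians of the 4 steps lie between -0.20 and -0.13, and *Slc16a7* at 1.15 is the highest point.

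Cell markers were read beside these results, where 10.2% of all probe-sets tested were called higher and 5.98% lower. Of the hepatocyte markers, limma called 0 of 6 tested (also 0 at an unadjusted P under 0.05), with *Alb* at 13.47 to 13.54 in the controls and 13.47 to 13.58 in the alcohol group, and the summed linear level of the 6 ran from 54310 to 58140 in the controls and from 55040 to 59250 in the alcohol group. Of the Kupffer cell markers, limma called 0 of 11 (1 at an unadjusted P under 0.05), and their sums overlapped, at 3154 to 4715 and 3071 to 4624. Of 7 sinusoidal endothelial markers, 2 were called higher, *Lyve1* (1.23) and *Clec4g* (0.47). The change was above 0 for all 7, with 4 at an unadjusted P under 0.05. Over all probe-sets tested it was below 0 for 40%. The sum of the 7 was 3144 to 3471 in the controls and 3900 to 4728 in the alcohol group. In that sum *Clec4g* weighs most, with a control mean of 10.79 against 8.78 for the next, *Stab2*. Of 8 stellate cell markers, *Lrat* was higher (0.54) and *Reln* lower (-0.34), with 2 higher and 2 lower at an unadjusted P under 0.05 and sums over the 9 on the array of 4114 to 4378 and 4278 to 4828. Of 2 erythroid markers on the array, *Alas2*, the erythroid 5-aminolevulinate synthase, changed by -2.07, and *Slc4a1*, the anion exchanger of red cells, fell under the filter (-0.36). No T or NK cell, B cell, neutrophil or adipocyte marker passed the filter, and 1 cholangiocyte marker did without being called. Each sum adds the levels of different genes and is led by the highest of them, so it does not measure the number of cells. The part of these marker shifts in the changes of the oxidation genes was not tested.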

How the data were processed

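Total RNA from the livers of 4 alcohol-fed and 4 pair-fed wild type mice was hybridised to Affymetrix Mouse Exon 1.0 ST arrays, 1 array per mouse. The deposited values are log2 expression values that the authors made with RMA in Affymetrix Expression Console (version not given in the sources used here). The table holds 23332 probe-sets, of which 14996 carry 1 gene symbol in the platform annotation, 1019 several and 7317 none. No columns of fold changes or p-values were used.

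Following the study's methods, 10430 probe-sets were kept. They were those with the highest fourth-highest value over the 8 arrays (5.56 or more), a rule that does not use the diets and stands in for a noise filter whose level is not given in the sources used here. Alcohol was compared with control in limma 3.58.1 (lmFit, eBayes) under R 4.3.3, with Benjamini-Hochberg adjustment over all probe-sets kept and a threshold of 0.05. A gene was read at its probe-set of highest mean among those with that symbol alone. Groups were called apart when no value of one lay within the other. The script was tested on simulated data. The number of arrays limits the precision.

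The members and lists were chosen with earlier results of these data known. All members are named. Of each neighbouring list, the genes that passed the threshold are named in order of size, up to 4, with *Ppara* in any case; *Pccb*, *Sirt3* and *Acox3* were added after their values were seen, as were the marker genes with values. Alternatives changed the filter, the variance moderation, array weights, the normalization and the threshold, and left out each mouse in turn. Averaging the probe-sets of a gene could change nothing, since each gene read had 1. Counts out of 16 alternatives leave out that averaging and the changes of threshold. Promoters came from the RefSeq table of GRCm38.p6, in which *Acaa2*, *Acad9*, *Acat1*, *Crat* and *Decr1* had no entry.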

Additional observations from a re-analysis of the deposited data

Results flagged for a closer look

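In 3 of the 52 groups of 4 mice examined, 1 mouse lay far from the other 3, its gap to the nearest divided by the range of the group being above Dixon's 95% critical value. Chance alone flags about 1 in 20 groups at that level. *Cpt2* was 9.69 in WA-811 and 9.52 to 9.54 in the other alcohol mice, a gap of 0.878 of the range of the group. *Acadsb* was 8.47 in WA-833 and 8.10 to 8.14 in the others (0.90 of the range). *Hadha* was 10.69 in WA-836 and 10.96 to 11.01 in the others (0.84 of the range). All 3 were in the alcohol group, and a different mouse stood apart each time.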

How the results depend on the processing

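*Cpt1a* was called lower under every one of the 16 alternatives that could move it, with a log2 change between -0.67 and -0.51. The number of members called lower, 5, became 1 with no filter, 8 when the deposited values were quantile normalized again, 11 when arrays were centred on their medians, 0 at an adjusted p under 0.01 and 12 at an adjusted p under 0.1. Leaving out 1 mouse gave 3 to 5. The number called higher, 1, became 0 with no filter, with no moderation of the variances and at an adjusted p under 0.01, and ran from 0 to 1 when 1 mouse was left out. Members past the thresholds of the study's methods numbered 0 to 1 when 1 mouse was left out, 1 without WA-811.

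*Etfa* and *Bdh2* lost their calls with no filter alone (adjusted p = 0.065 and 0.0609), *Slc22a5* in 6 of 16 alternatives, *Echs1* in 7 and *Acad8* in 9. *Acsl5* passed the threshold under 4 alternatives, *Cpt2* and *Acadsb* under 3, *Bdh1* under 2, and *Acadvl* and *Decr1* under 1, which was the centring on medians. The change of *Acads* turned to -0.016 under that centring, and that of *Etfdh* ran from -0.16 to 0.009 when 1 mouse was left out. The median change of the members was -0.18, -0.22 after a second quantile normalization and -0.24 after centring, with 18, 18 and 19 members below 0. Centring takes the difference between the array medians of the diets, which were higher with alcohol, off every change. Why the medians differed was not tested, nor was the cause of the other shifts.

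The controls were pair-fed, but the labels do not say which control mouse was matched to which alcohol mouse. The fit was therefore unpaired. RMA values of a probe-set cannot be set against those of another gene.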
